A study of Homo sapiens with 2 samples.

Results

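LSD1 binding at the alternative promoters of protein-coding genes was described in PC-3M-luc cells, a luciferase-marked prostate carcinoma line from the metastatic variant PC-3M. A peak was taken as an alternative-promoter peak when its midpoint lay within 1 kb of the transcription start site (TSS) of any transcript of a protein-coding gene, and more than 1 kb from the TSS of every Ensembl canonical transcript, the 1 transcript per gene that Ensembl names as its representative. Of the 20110 peaks in the authors' list, 2226 met this rule. Chromatin immunoprecipitation with an Abcam antibody to LSD1 gave 1 library, and input DNA gave 1 library. Both came from cells of genotype "Control" grown in serum-supplemented medium with no treatment named, and both are labelled as the first biological replicate. All values therefore describe 1 experiment in 1 cell line, with no replicate check and no p-value. Intervals are exact 95% intervals and cover counting error only.

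LSD1 (KDM1A) removes methyl groups from mono- and dimethylated lysine 4 of histone H3 and works with CoREST and NuRD corepressor complexes. Many human genes can start transcription at several promoters, and the choice among them can change the first exon, the protein's N terminus or the untranslated leader. Annotated start sites differ in their evidence: some belong to complete coding transcripts, whereas others belong to retained-intron or partial transcripts whose 5′ end may not be a promoter.

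Both kinds of sequence found under strong peaks are shown by 5 genes, as the 200 bases before the start site on the gene's strand, 5′ to 3′, from GRCh37 (the same assembly as hg19). Capitals mark CpG dinucleotides, which cluster in CpG islands at many human promoters. PTOV1, a protein first described as overexpressed in prostate tumours, is shown with its canonical start for comparison. SPNS2, a sphingosine-1-phosphate exporter, RUNX1, a transcription factor of blood development, TAF12, a subunit of the general transcription factor TFIID, and CLASP1, a microtubule plus-end protein, are shown at the alternative start alone.
PTOV1 alternative start, chr19:50360964-50361163, plus strand: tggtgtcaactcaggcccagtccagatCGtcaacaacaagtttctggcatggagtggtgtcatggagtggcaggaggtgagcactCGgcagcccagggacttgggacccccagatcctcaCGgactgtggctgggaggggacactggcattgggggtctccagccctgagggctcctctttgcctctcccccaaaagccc
PTOV1 canonical start, chr19:50354216-50354415, plus strand: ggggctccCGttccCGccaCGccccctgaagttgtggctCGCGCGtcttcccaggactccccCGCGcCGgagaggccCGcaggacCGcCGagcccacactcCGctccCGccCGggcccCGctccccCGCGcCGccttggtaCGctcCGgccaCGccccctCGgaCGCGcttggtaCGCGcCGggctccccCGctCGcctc
SPNS2 alternative start, chr17:4439857-4440056, plus strand: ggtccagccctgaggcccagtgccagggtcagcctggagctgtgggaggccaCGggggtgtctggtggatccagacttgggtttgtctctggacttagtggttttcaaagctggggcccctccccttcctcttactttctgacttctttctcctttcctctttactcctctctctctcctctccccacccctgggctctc
RUNX1 alternative start, chr21:36260988-36261187, minus strand: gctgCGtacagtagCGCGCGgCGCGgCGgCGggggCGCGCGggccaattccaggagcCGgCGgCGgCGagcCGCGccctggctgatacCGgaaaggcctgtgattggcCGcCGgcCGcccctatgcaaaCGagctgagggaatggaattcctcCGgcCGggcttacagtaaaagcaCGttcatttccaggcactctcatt
TAF12 alternative start, chr1:28974804-28975003, minus strand: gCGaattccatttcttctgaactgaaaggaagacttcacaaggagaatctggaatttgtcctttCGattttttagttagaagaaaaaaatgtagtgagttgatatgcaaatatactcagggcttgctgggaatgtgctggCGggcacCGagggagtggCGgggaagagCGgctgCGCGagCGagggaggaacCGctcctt
CLASP1 alternative start, chr2:122288322-122288521, minus strand: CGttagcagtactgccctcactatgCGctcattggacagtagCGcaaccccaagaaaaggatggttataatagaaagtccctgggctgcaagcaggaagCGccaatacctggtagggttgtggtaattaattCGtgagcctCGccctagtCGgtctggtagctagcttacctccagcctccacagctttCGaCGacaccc
The PTOV1 alternative start had 3 CpG dinucleotides in 200 bases, against 30 at its canonical start. SPNS2 had 1 at its alternative start. RUNX1 differed from both, with 25 CpG at its alternative start and an observed-to-expected CpG ratio of 1.12. TAF12 had 10 and CLASP1 had 9. Among these 5 genes, strong peaks thus lay near both CpG-dense and CpG-depleted start sites. In the 1000 bp at the peak midpoint, a measure given below, none of the 5 peaks was CpG-rich. The strong peaks at BCAR3, ATN1 and GPR137, whose sequences are not shown, were CpG-rich by that measure.

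Alternative-promoter peaks made up 20.1% (interval 19.3 to 20.8) of the 11089 peaks at any promoter and 11.1% (10.6 to 11.5) of all peaks. Some of them were broad peaks that also spanned a canonical start: in 323 (14.5%, 13.1 to 16.0) the interval covered a canonical TSS although the midpoint did not lie near it, and 302 of these covered the canonical TSS of the same gene. The other 1903 (85.5%) covered none and are called free-standing here. A margin of more than 1 kb between the whole peak and every canonical TSS was kept by 1780 (80.0%). Scores, widths and same-gene shares are given for each kind.

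The authors' score per peak, whose scale is not given in the sources used here, was used to rank peaks within this list only. Alternative-promoter peaks had a median score of 150.24 (140.14 to 160.71), against 410.72 (399.52 to 422.41) for the 8863 canonical-promoter peaks. Inside the alternative group, the median was 1311.32 (1156.5 to 1476.95) for peaks that cover a canonical TSS and 119.1 (112.08 to 126.16) for free-standing peaks. The free-standing median lay beside that of the 1504 exonic peaks away from promoters, 120.66 (110.3 to 129.55), and of the 4059 intergenic peaks, 119.11 (114.53 to 124.27), and above that of the 3458 intronic peaks, 85.24 (82.41 to 87.51). Free-standing scores ran from 50.01 to 3184.65, so single free-standing peaks reached the top of the list. The widest members were at RECQL4 (35292 bp, score 2966.19), NDRG1 (29855 bp, score 82.21) and ERRFI1 (25320 bp, score 3100), so width and score did not always go together. Of the 54 members with a score of 3100 or above, 46 covered a canonical TSS, among them CD63, LCN2, RPLP2 and FOXO3. Median width was 5368 bp for covering peaks, 1547 bp for free-standing peaks and 1836 bp for canonical-promoter peaks. A wide peak is more likely to span a canonical TSS, and the part of width in the difference between covering and free-standing scores was not tested.

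**Figure D1:**
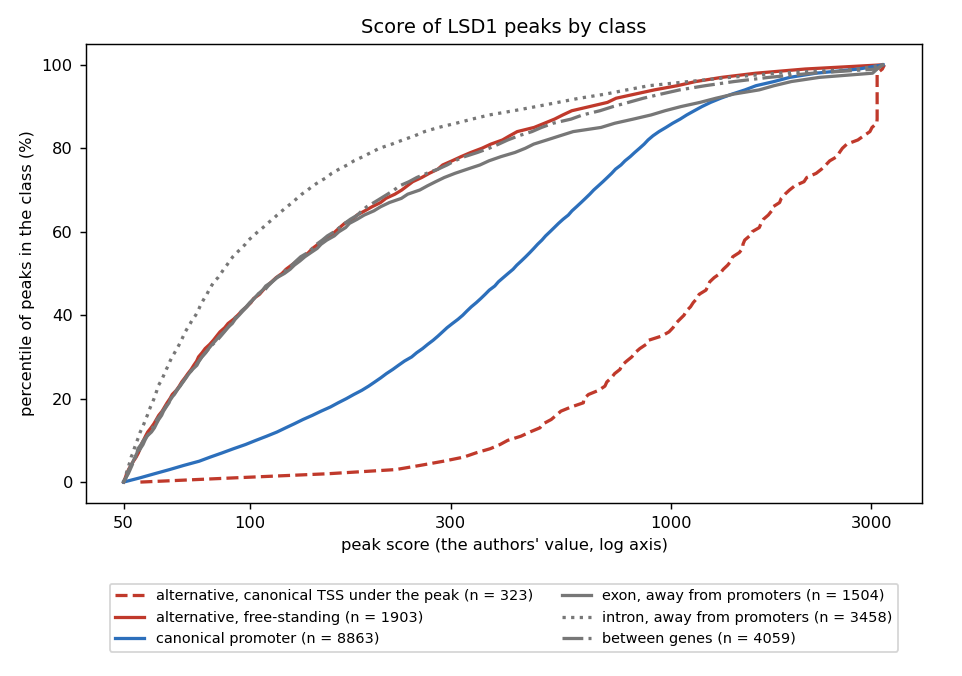
Percentile of peaks within each class (vertical axis, percent) by the authors' score (horizontal axis, log scale, no unit) for alternative-promoter peaks that cover a canonical TSS, free-standing alternative-promoter peaks, canonical-promoter, exonic, intronic and intergenic peaks. Free-standing peaks (median 119.1) run close to exonic (120.66) and intergenic peaks (119.11), while covering peaks (1311.32) lie to the right of canonical-promoter peaks (410.72).

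Alternative-promoter peaks were denser than peaks in the rest of the gene bodies. The 89.4 Mb within 1 kb of an alternative TSS, and over 1 kb from every canonical TSS, held 24.9 peaks per Mb (23.9 to 25.9), against 4.16 (4.04 to 4.27) in the other 1194 Mb of transcribed sequence, a ratio of 5.99 (5.69 to 6.30). The zone also lies closer to canonical promoters, where peaks are denser everywhere, so the densities were compared at equal distance. At 1 to 2 kb from the nearest canonical TSS the ratio was 2.28, from 47.2 peaks per Mb in alternative zones and 20.7 elsewhere. It was 3.18 at 2 to 5 kb, 3.29 at 5 to 10 kb, 3.43 at 10 to 20 kb and 3.80 at 20 to 50 kb. Beyond 50 kb it was 9.07 (7.82 to 10.5), with 10.5 peaks per Mb in alternative zones and 1.16 elsewhere. Peaks that cover a canonical TSS weigh most on the nearest bin. Without them, on both sides, the ratio at 1 to 2 kb was 1.71 (1.37 to 2.15), from 17.8 peaks per Mb in alternative zones and 10.4 elsewhere, and at 2 to 5 kb it was 3.06. Density was higher in alternative zones in each of these distance bins, with those peaks and without them. With only the higher-scoring peaks of the list, those not below its median, the ratio over all distances was 10.5.

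**Figure D2:**
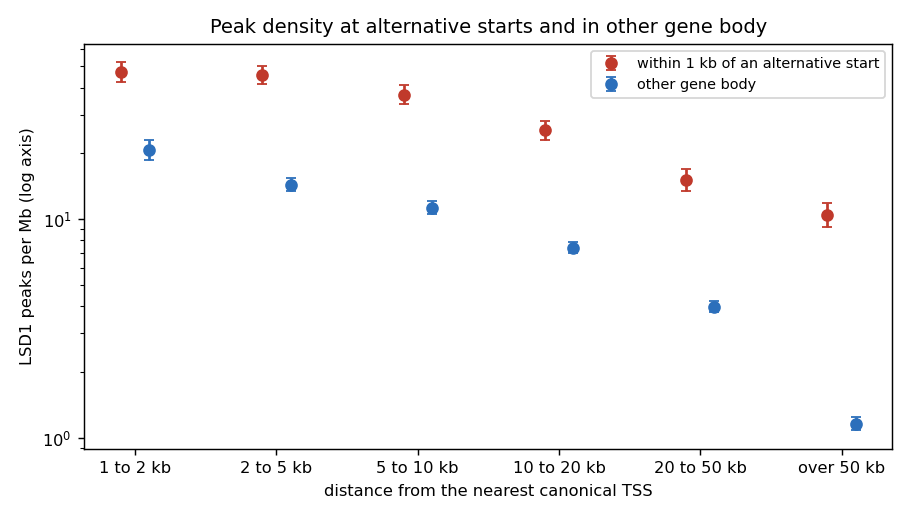
LSD1 peaks per Mb (vertical axis, log scale) in alternative-promoter zones and in the other transcribed sequence, by distance from the nearest canonical TSS (horizontal axis, kb), with exact 95% Poisson intervals. The alternative zones lie above the other sequence in every bin, by 2.28-fold nearest to the canonical TSS and by 9.07-fold beyond 50 kb.

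The alternative start nearest to a member lay downstream of the gene's own canonical TSS in 1780 of 2210 members with a canonical TSS on this build (80.5%) and upstream in 430 (19.5%). It was within 1 kb of it in 143, from 1 to 5 kb away in 615, from 5 to 20 kb in 721, from 20 to 100 kb in 568 and beyond 100 kb in 163. The midpoint lay in an intron in 49.6% of members, in a coding exon in 15.3%, in an untranslated exon in 15.3% and outside protein-coding genes in 5.84%. Members sat a median of 298 bp from their nearest start, against 108 bp for canonical-promoter peaks. Another peak lay within 1 kb of 37.2% of members, against 11.5% of canonical-promoter peaks, 43.3% of exonic peaks, 32.1% of intronic peaks and 25.2% of intergenic peaks. The share was 39.0% of covering and 36.9% of free-standing members, and members as a whole lay between intronic and exonic peaks.

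Members differed by the kind of start under them. Members were sorted by the best-supported start within 1 kb: 712 had a coding transcript of the GENCODE basic set, 462 another coding transcript, 82 a transcript subject to nonsense-mediated decay, 471 a transcript with no defined coding sequence, and 499 a retained-intron or other transcript. Among free-standing members the median score was 189.71 (164.33 to 214.73) at basic coding starts and 114.35 (102.92 to 126.24) at other coding starts. It was 91.56 (84.42 to 102.51) at retained-intron starts, near the intronic median of 85.24. The share with another peak within 1 kb ran the other way, with 24.2% at basic coding starts and 47.3% at retained-intron starts. A start whose transcripts were all annotated as incomplete at the 5′ end was the only kind under 156 members.

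CpG content separated the members further. A window of 1000 bp at the midpoint was called CpG-rich when its GC content was over 55% and its observed-to-expected CpG ratio over 0.65. By that measure 451 alternative-promoter peaks were CpG-rich (20.3%, 18.6 to 22.0), against 74.0% of canonical-promoter peaks. The share was 10.2% of intergenic peaks, 5.72% of exonic peaks and 3.01% of intronic peaks. Among free-standing members the CpG-rich share was 40.8% at basic coding starts, 18.3% at other coding starts, 12.0% where no coding sequence is defined, 10.1% at nonsense-mediated decay starts and 5.61% at retained-intron starts. Free-standing CpG-rich members had a median score of 248.24 (222.16 to 300.91), and those not CpG-rich 102.16 (96.67 to 107.72). Both lay below the canonical-promoter median of 410.72.

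Seen from the start sites, 4362 of 63415 alternative starts (6.88%) had a member within 1 kb. At CpG-rich alternative starts the share was 35.1% (1205 of 3437), and at the others 5.26% (3157 of 59978). By distance from the nearest canonical TSS it ran from 21.1% at 1 to 2 kb to 43.7% at 5 to 10 kb at CpG-rich alternative starts, and was 41.7% beyond 50 kb. At the others it was 10.3% at 2 to 5 kb and 1.88% beyond 50 kb. The rule removes peaks within 1 kb of a canonical TSS, so part of the window around starts at 1 to 2 kb cannot hold a member, and the lower share there is partly set by the rule. Canonical starts had a peak at 70.3% of CpG-rich and 23.8% of other sites. By kind of transcript, the share at CpG-rich alternative starts ran from 29.9% at retained-intron starts to 40.1% at nonsense-mediated decay starts. At the other alternative starts it ran from 4.30% at nonsense-mediated decay starts to 6.46% at basic coding starts. Neighbouring starts share peaks, so these shares are not over independent sites.

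**Figure D3:**
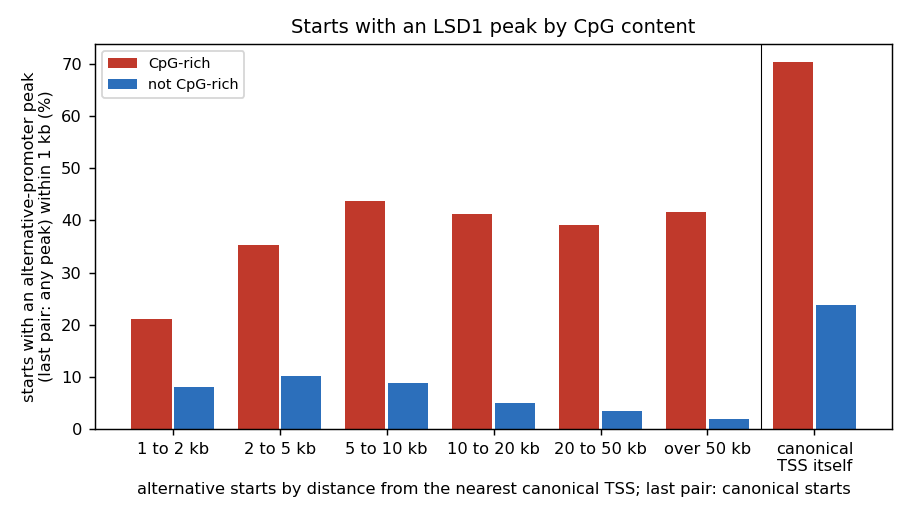
Share of start sites with a peak midpoint within 1 kb (vertical axis, percent), counting alternative-promoter peaks for alternative starts and any peak for canonical starts. Alternative starts are grouped by distance from the nearest canonical TSS (horizontal axis, kb), canonical starts are the last pair of bars, and both are split into CpG-rich and not CpG-rich. CpG-rich alternative starts lie between 21.1% and 43.7% and the others between 1.88% and 10.3%, while canonical starts reach 70.3% and 23.8%.

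Short sequence elements were counted in the 200 bp at each midpoint on both strands, as a match of letters and not as a bound site. The SP/KLF element GGGGCGGGG was in 5.97% of alternative-promoter peaks, 13.4% of canonical-promoter peaks and 7.53% of all peaks. In CpG-rich free-standing members it reached 18.3% (14.6 to 22.5), against 15.6% in CpG-rich canonical-promoter peaks. The ETS element CCGGAAGT did not follow it: CpG-rich free-standing members held it in 1.27% (0.414 to 2.94) and CpG-rich canonical-promoter peaks in 3.81%, with 1.92% in all peaks. The YY1 element AAGATGGCG was in 0.225% of members and 1.97% of canonical-promoter peaks, and the NRF1 element GCGCATGC in 0.764% and 2.09%. The AP-1 element, TGAGTCA or its reverse complement TGACTCA, was in 4.09% of members, 1.29% of canonical-promoter peaks, 4.06% of exonic peaks, 8.27% of intronic peaks and 4.30% of all peaks. Among peaks that were not CpG-rich it was in 5.36% of free-standing members and 2.39% of canonical-promoter peaks. CCAAT was in 17.3% of members and 17.9% of canonical-promoter peaks.

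The same gene often carried a peak at both promoters. The canonical promoter of the member's gene held another peak in 1226 of 2210 members (55.5%, 53.4 to 57.6), beside 50.2% of all 19881 protein-coding genes with a canonical TSS. For free-standing members the share was 64.1% (1209 of 1887). For covering members it was 5.26%, where the member itself usually spans the canonical start. The pooled share counts a gene once per member, while the share of all genes counts each gene once. All genes also include those with no alternative-promoter zone. The pooled share changed sides with the setting. It was 31.2% with windows of 500 bp, against 42.4% of all genes by the same window, and 72.2% with 2 kb, against 54.0%. With coding starts alone it was 49.6% (46.7 to 52.5), an interval that includes the 50.2% of all genes. With peaks of a score of at least 100 it was 42.4%, against 45.9%. In the 1209 free-standing pairs the alternative peak had a median score of 106.9 (99.76 to 114.7) and the canonical peak 551.7 (516.82 to 592.65), a median difference of -379.38 (-421.1 to -329.18), alternative minus canonical. Where several peaks lay at a canonical promoter, the highest-scoring one was taken. Members of the same gene share its canonical peak, so the pairs are not independent and the intervals do not allow for this. The alternative peak had the higher score in 220 pairs (18.2%). This was so in 47.9% of pairs whose alternative peak was CpG-rich and in 12.7% of the rest.

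**Figure D4:**
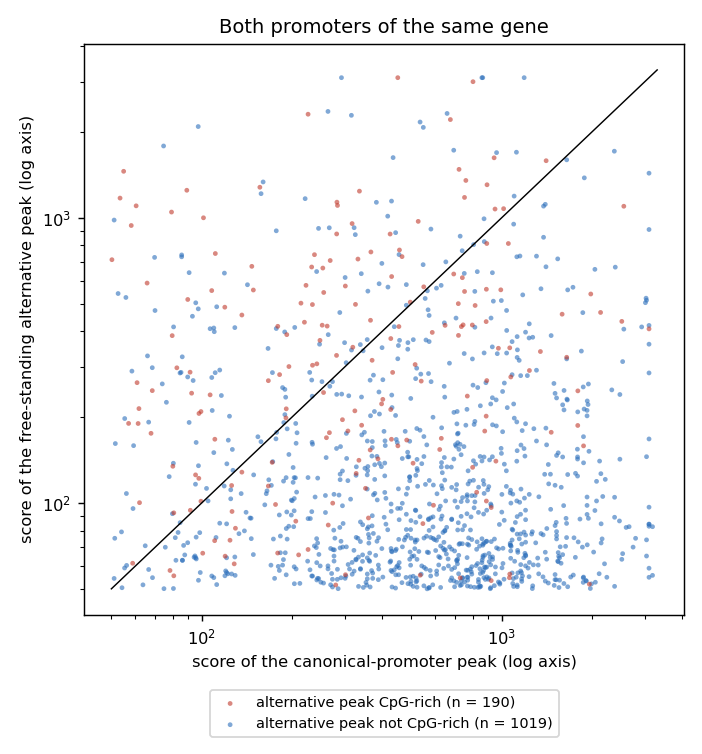
Authors' score of the free-standing alternative-promoter peak (vertical axis, log scale) against that of the peak at the same gene's canonical promoter (horizontal axis, log scale), 1 point per pair, by CpG content of the alternative peak. The alternative peak has the higher score in 220 of 1209 pairs, which lie above the diagonal. Where a canonical promoter held several peaks, the highest-scoring one was used, and members of the same gene share it.

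In 407 members (18.4%) no base of any peak lay within 1 kb of the gene's own canonical TSS. A peak was thus called near an alternative start and not at the canonical one. Of these 407 members, 65.8% had a coding start and 38.8% were CpG-rich. Those with no coding start included SPNS2, at a start of the retained-intron or other kind. The highest-scoring free-standing examples were SPNS2 at 3100, 37.9 kb downstream of its canonical TSS, and RUNX1 at 2540.84, 161 kb downstream. The RUNX1 peak, at chr21:36257949-36262923, lies over the proximal of the gene's known promoters, the CpG-dense sequence shown above. MIA2, which encodes a protein of collagen export from the endoplasmic reticulum, scored 2265.78 at 33.5 kb downstream. SCNN1A, the alpha subunit of the epithelial sodium channel, scored 2070.38 at 11.9 kb downstream. MAP4, a microtubule-associated protein, scored 1932.24 at 72.4 kb upstream. FCRLB scored 1852.1 and DIPK1B 1741.17, while LSR at 2351.53, MMRN2 at 1910.31 and ANG at 3100 also covered the canonical TSS of another gene. In none of these genes did the canonical start have a peak, which says that none passed the authors' threshold there and not that LSD1 was absent.

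Another strong free-standing member was at BCAR3, an adaptor of integrin and Cas signalling, at chr1:94311115-94314161 with a score of 3184.65. This peak was 165 kb upstream of the canonical TSS, over a CpG-rich basic coding start, and no peak had its midpoint within 1 kb of that TSS. Scores of 3100 recur at 206 peaks of the list, with 19 above, so the order among peaks at or above this value was not read. Of the 7 free-standing members at 3100, those at SPNS2 and DDIT4 had no canonical peak to compare. The other 5 lay in genes with another peak at the canonical promoter. The only start of a protein-coding gene near the SPNS2, DDIT4, CLASP1, ATN1 and MRNIP peaks was of the retained-intron or other kind. Such a start may not be a promoter. The start was a basic coding one at TAF12. At PTOV1 it was a coding one outside the basic set, 728 bp from the midpoint. PTOV1 scored 3100 at its CpG-depleted alternative start, against 865.1 at its canonical promoter. CLASP1 scored 3100 at its alternative start 119 kb into the gene, against 859.4, and its peak also covers RNU4ATAC, a small nuclear RNA gene of the minor spliceosome. TAF12 scored 3100 at 5.22 kb upstream, against 1188.83. ATN1, a transcriptional corepressor, scored 3100 against 450.6, MRNIP, a DNA repair factor, 3100 against 292.46, and GPR137 3000.78 against 802.73. In these 6 genes the alternative peak outscored the canonical one. They were picked for the high score of the alternative peak, so this outcome was largely set by the choice. Over all 1209 pairs it held in 18.2%. DDIT4, an inhibitor of mTORC1 signalling, also scored 3100, but it has no canonical transcript on this build and so met the rule by that absence; 16 members are at such genes. Small nuclear, nucleolar or Cajal body RNA genes lay under 11 free-standing members (0.578%), against 0.327% of canonical-promoter peaks, 1.06% of exonic peaks and 0.868% of intronic peaks. The interval of the free-standing share, 0.289 to 1.03, includes the canonical-promoter and intronic values. A start of a long non-coding RNA also lay within 1 kb of the midpoint at BCAR3, PTOV1, TAF12, CLASP1 and MIA2. This was so for 10.2% of members, 22.5% of canonical-promoter peaks, 5.65% of exonic peaks and 4.25% of intronic peaks. Which start such a peak belongs to was not tested.

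Members fell in 1839 of the 16948 genes that have an alternative-promoter zone (10.9%). Most of these genes had 1 member (1516), 249 had 2, and 25 had 4 or more. DPP9, a dipeptidyl peptidase, and KMT2D, a histone H3 lysine 4 methyltransferase, had 6 each, with scores from 51.56 to 383.17 and from 50.33 to 537.85. PXN, the focal adhesion protein paxillin, had 5, from 54.04 to 773.36, and ITGB4, the hemidesmosome integrin beta 4, had 5, from 67.46 to 539.25. The aminoacyl-tRNA synthetase genes AARS1 and IARS1 had 5 each, with scores from 91.19 to 211.22 and from 74.8 to 233.49. MARS1 and VARS1 had 4 each, from 50.16 to 922.28 and from 74.19 to 367.97. This family was not among the gene lists, and its share with a member was not computed. The chromatin genes MTA1, GSE1 and SMARCA4 had 4 each. Genes with more annotated starts more often had a member: the share was 5.35% of genes with 1 alternative start and 24.9% of genes with 7 or more. Genes with a member had a median of 5 alternative starts, and those without had 2.

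Gene lists were read against the 10.9% of all genes and against their number of starts. In the LSD1, CoREST and NuRD list, 7 of 26 genes had a member (26.9%), with a median of 7 starts per gene. CTBP2, a corepressor, scored 1143.66 at 133 kb upstream of its canonical TSS, which had no peak. The NuRD subunit GATAD2A scored 877.77 at 19.8 kb upstream, against 281.87 at its canonical promoter. GSE1, a CoREST-associated protein, scored 514.08 at its highest member, against 3041.32 at the canonical promoter, and the NuRD helicase CHD3 scored 480.23. KDM1A itself had no member.

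Genes known for alternative promoters had members in 14 of 40 (35.0%, median 9 starts). FOXP1, a forkhead factor, scored 1178.83 at 519 kb downstream of its canonical TSS, against 752.09 there. GNAS, the imprinted gene of the stimulatory G protein alpha subunit, scored 622.33 at 2.53 kb upstream, against 429.85. BDNF, a neurotrophin, scored 485.91 against 119.43. These pairs were named for the high score of the alternative peak. The canonical peak scored higher at BCL6, FBXW7, NR3C1, PPARG, RASSF5 and SREBF1, and against another FOXP1 member. The alternative peak scored higher at ACACA and ADAR. The set also held RASSF1, a tumour suppressor, at 507.43 and ADAR, an RNA-editing enzyme, at 420.15. Members were thus found at a minority of the genes on this list, and ESR1, TP63 and TP73 had none.

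The adhesion and cytoskeletal lists had more starts per gene than the median gene with a member. Focal adhesion and integrin genes had a member in 10 of 35 (28.6%, median 9 starts). FLNA, an actin crosslinker, scored 915.71, where the only start was of the retained-intron or other kind. BCAR1, the Cas scaffold, scored 872.83 at a basic coding start. Giant cytoskeletal linkers and membrane skeleton genes had 10 of 23 (43.5%), with a median of 14 starts. Among them NUMA1, a spindle protein, scored 647.93, the spectrin SPTBN1 639.81 against 119.07 at its canonical promoter, PLEC, or plectin, 537.86, and DST, or dystonin, 408.42. Tropomyosins and septins had 4 of 16, an interval of 7.27% to 52.4% that includes the 10.9% of all genes, with SEPTIN9 at 583.1, TPM3 at 373.89 and TPM4 at 312.93.

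SR and hnRNP splicing factors had a member in 13 of 25 (52.0%), of which 12 had a free-standing one, with a median of 5 starts. With coding starts alone this was 7 of 23, and the giant linkers then had 10 of 22. The share of all genes was then 7.16% (1062 of 14826). Cytosolic ribosomal protein genes had 14 of 30 (46.7%), but a free-standing member in 2 (6.67%), near the 9.19% of all genes. With coding starts alone 5 of 28 had a member, beside the same 7.16% of all genes. These genes are short, with a median length of 4.83 kb, against 20.6 kb for the splicing factor list. Epithelial-mesenchymal transition and invasion genes had 5 of 25 (20.0%), or 1 of 18 more than 5 kb from canonical starts, including VIM at 1711.79, which covers the canonical TSS, and the epithelial marker EPCAM at 189.44. Prostate luminal and androgen response genes had 4 of 23 (17.4%), or 2 of 20 with coding starts alone and 2 of 15 more than 5 kb from canonical starts. These were KRT18 at 2687.24, which covers the canonical TSS, FKBP5 at 116.37, ELF3 and NDRG1 with all starts. KLK2 and KLK3 were among those without. Of all genes, 9.56% (1112 of 11636) had a member more than 5 kb from canonical starts. Neuronal and neuroendocrine genes had 2 of 20 (10.0%), BDNF and L1CAM, and olfactory receptors 0 of 15, an interval up to 21.8%. The part of start number and gene length in these shares was not tested.

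**Figure D5:**
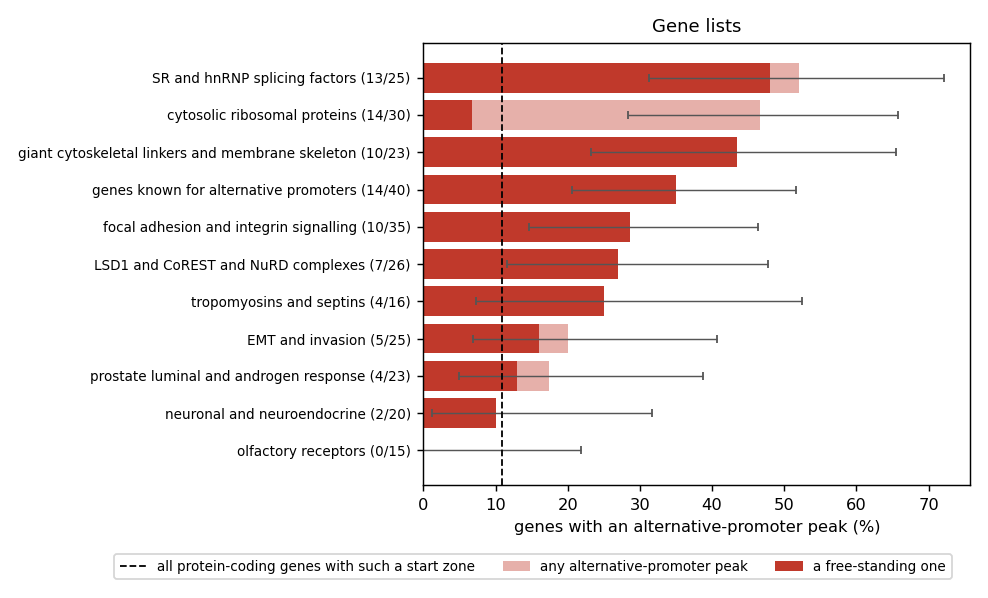
Share of genes with an alternative-promoter peak among those with an alternative-promoter zone (horizontal axis, percent, exact 95% intervals) for the gene lists described in the text, with the free-standing part of each bar in darker colour and the 10.9% of all genes as a dashed line. SR and hnRNP genes (52.0%) and ribosomal protein genes (46.7%) are highest with all starts but not with coding starts alone. With coding starts alone the giant linkers have 10 of 22 and all genes 7.16%. A free-standing member is held by 6.67% of ribosomal protein genes.

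The members named just inside the limits of the rule, with ties broken by width, were broad peaks of high score. BCL2L1, an anti-apoptotic gene, and MAPK8IP3 had midpoints 1000 bp from an alternative TSS, with scores of 1683.98 and 1272.77, and EIF4G2 and ELMO3 had midpoints 1003 bp from a canonical TSS, with 3181.53 and 1019.42. All 4 covered a canonical TSS. Free-standing members also lay 1003 bp from a canonical TSS, but ties went to the wider peak. The breadth of the members named at that limit was thus set in part by the choice. Just outside lay peaks near PLEKHM1 (64.5) and TRAPPC5 (886.69), at 1001 and 1003 bp from the nearest TSS, and at MYH9 (876.89) and PRKACA (338.89), at 1000 and 999 bp from a canonical TSS.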

How the data were processed

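LSD1 ChIP and input DNA were sequenced in PC-3M-luc cells, 1 library each. Per the labels' protocols, reads were mapped to hg19 with bowtie 2, and the submitters' processing notes name MACS 1.41. Caller settings, peak threshold and depth: not given in the sources used here. The deposited list holds a score per peak made by the authors, with a lowest value of 50, used only to describe and rank peaks.

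Start sites came from GENCODE 44 mapped to GRCh37, whose chromosomes contain all peaks. Coordinates are 1-based. Of 20163 protein-coding genes, 282 have no canonical transcript on this build. Shares have exact Clopper-Pearson intervals, densities exact Poisson intervals, density ratios exact conditional binomial intervals and medians order-statistic intervals, all at 95%. With 1 library per arm no test across replicates was made.

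Members and the 12 lists were chosen with earlier results of these data known, and some items of the lists are not reported here. Genes were named from the 10 highest-scoring free-standing members, the 10 highest with no peak base at the canonical promoter, the 5 highest of all, the 3 widest, up to 4 genes per list, PXN, CTBP2, BCAR1, DST, ITGB4, FLNA, genes with 4 or more members, and those at the limits. RASSF1 and ADAR were picked after their values were seen. So were list genes named for lacking a member or only for which of their peaks scored higher. The classification was tested on 3000 simulated peaks, with 0 differences from a brute-force search. Alternatives varied the window, start set, score, width and distance, and 3 more were added after seeing the data. Software was scipy 1.17.1, numpy 2.4.6, pysam 0.24.0, pandas 2.3.3 and matplotlib 3.10.9 under Python 3.11.15, with samtools 1.23.1.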

Additional observations from a re-analysis of the deposited data

How the results depend on the processing

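No paired analysis was possible because the ChIP and the input are single libraries. Under other settings, 26 values of the main results stayed within their counting interval (or within 1.5 times for the number of peaks) and 41 moved. With windows of 500 bp on both limits the median score was 239.02, the median width 2013 bp, the share covering a canonical TSS 34.9%, the share with another peak at the canonical promoter 31.2%, the density ratio 8.45 and the CpG-rich share 34.2%. With 2 kb these were 120.67, 1585.5 bp, 5.35%, 72.2%, 5.04 and 14.2%, in the same order. Starts of coding transcripts alone gave 1174 peaks, a median score of 203.31, 16.6% covering, 49.6% with another canonical peak, a ratio of 6.94 and 30.5% CpG-rich. The basic set gave 712 peaks, 247.49, 17.1%, 45.1%, 8.26 and 38.9%. Peaks with a score of at least 100 numbered 1405, with a median score of 333.88, a width of 2488 bp, 22.6% covering, 42.4% with another canonical peak, a ratio of 8.16 and 26.5% CpG-rich. More than 5 kb from every canonical TSS lay 1379 peaks, with 119.57, 1573 bp, 0.508% covering and 62.6% with another canonical peak. Covering fell to 12.3% without the widest 1% of peaks, against 14.5% with them, and 20.0% had a base within 1 kb of a canonical TSS. Any base of another peak near the canonical TSS gave 65.9%, and a 500 bp window gave 22.3% CpG-rich. The share with another canonical peak thus lay below that of all genes at the same setting under 4 of these settings. They were those of 500 bp, coding starts, the basic set and the score limit. With coding starts the interval, 46.7 to 52.5, included the 50.2% of all genes. Without peaks that cover a canonical TSS, a setting added after seeing the data, the density ratio was 5.45. It stayed above 5 in each setting run. Leaving out transcripts incomplete at the 5′ end, or genes with no canonical TSS, both added after seeing the data, moved none of the main results. Coding starts alone left 7 SR and hnRNP genes and 5 ribosomal protein genes with a member, and the 5 kb limit left 8 and 1. Invasion genes with a member numbered 1 under the 5 kb limit, and prostate luminal genes 2 under either. The share of all genes with a member was 7.16% with coding starts alone and 9.56% under the 5 kb limit. Read depth was unknown, so a start without a peak is not shown to lack LSD1.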
